A study of Mus musculus with 27 samples.

Results

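Mouse embryos injected with the siRNA reagent named siP300 were compared with embryos injected with the reagent named siControl. Each group holds 3 libraries, so 6 of the 27 libraries of the series enter the comparison, and they were chosen by their labels. The embryos were wild type; no strain is given in the sources used here. Zygotes received siRNA into the cytoplasm at embryonic day (E) 0.5 and grew in KSOM medium to the morula at E2.75, and 15 to 20 embryos were pooled per library. The groups siKat6a, siKat6b and siComb were handled in the same way, and what siComb contains is not stated. In the A485 and Vehicle groups, embryos met an inhibitor of p300 and CBP, or its Vehicle, at E2.5 and were collected at E2.75. No siRNA sequence was used here.

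Ep300 encodes p300, a large acetyltransferase that, with its close relative CBP (Crebbp), is recruited by many transcription factors and acetylates histones at enhancers and promoters. Between the zygote and the morula the mouse embryo degrades its maternal RNA, passes through a 2-cell program marked by the retrovirus MERVL, and starts the genes that set apart the inner cells from the trophectoderm, the outer layer that later forms the placenta. Coactivators such as p300 belong to the machinery of this zygotic genome activation.

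Levels are CPM (counts scaled to a common library total) with library sizes adjusted by TMM, a factor that corrects library sizes for differences in composition, and are listed in the order of replicates 1, 2 and 3. A gene rose or fell where edgeR's quasi-likelihood test, fitted over the 15 siRNA libraries, gave a Benjamini-Hochberg adjusted p under 0.05, and log2 fold changes are siP300 over siControl with their standard error (n = 3 libraries per group). The 6 libraries held 9161784 to 11991314 counts. The pools are named biological replicates, but nothing states that they were collected on separate days or from separate litters, so the p-values measure only how far these samples scatter, which may be technical. In pools, fewer cells of a type and less RNA per cell cannot be told apart.

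The target was measured first. Ep300 (GENCODE vM21 on GRCm38, chr15:81585351-81652077, plus strand) stood at 17.9, 12.2 and 28.8 CPM in the siP300 libraries and at 24.1, 24.9 and 30.7 CPM in the siControl libraries. Replicates 1 and 2 of siP300 lay below every siControl library and replicate 3 lay inside their range, and the difference did not pass the test (log2 fold change -0.43 ± 0.29, adjusted p = 0.259). Without siP300 replicate 3 it did (log2 fold change -0.82, adjusted p = 0.0453). The results below are therefore those of libraries labelled siP300, with no measured size of the p300 loss. Crebbp, the CBP gene, stood at 189, 125 and 149.6 CPM against 146, 146 and 155 CPM with siControl (log2 fold change 0.05 ± 0.16, adjusted p = 0.823). Kat6a and Kat6b, acetyltransferases of the MYST family that are targets of the other reagents, were not called either (0.25 ± 0.20, adjusted p = 0.356, and -0.49 ± 0.27, adjusted p = 0.174, on the log2 scale). With library size alone Kat6a was called (log2 fold change 0.58, adjusted p = 0.0483).

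Several measures of whole libraries moved with the group, and their part in the gene results was not tested. The 13 mitochondrially encoded protein genes took 4.19 ± 0.752% of counts with siP300 and 1.47 ± 0.193% with siControl (SD, n = 3). At an equal depth of 9086237 counts, 17645 ± 480 genes with siP300 and 15086 ± 50.5 with siControl had at least 10 counts. Protein-coding genes took 91.5% against 93.3% of counts and long noncoding genes 5.36% against 4.55%. The groups did not overlap in any of these (2-sided exact permutation p = 0.1 each, the smallest that 3 against 3 can give). One library stood apart: siP300 replicate 2 had the MERVL-int level described below and lay away from the other siP300 libraries on the second principal component of the 15 libraries (13.1% of variance, against 53.1% on the first), so the counts over all genes are also given without it, and those list counts that depended on it.

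Of 19182 genes tested, 6789 (35.4%) were called, 3787 (19.7%) of them higher and 3002 (15.7%) lower in siP300. At least 2-fold changes numbered 3140 (16.4%) upward and 1575 (8.21%) downward, and the 2 groups did not overlap in 9203 genes (48%). Without siP300 replicate 2 the test called 3454 genes higher and 2815 lower. The direction of the split rests in part on the scaling: with library size alone 5385 genes were higher and 1612 lower, so 77.0% rather than 55.8% of the calls were upward, and the median log2 fold change of all genes moved by 0.32, from 0.13 to 0.45. Without siControl replicate 1 the number higher was 2494.

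Direction went with level, as a description across genes, which are not independent replicates. The level came from the same 15 libraries, most of which are not siP300 or siComb, so part of the link may come from the measure itself. Genes low in siControl could also pass the filter through siP300 or siComb alone. In the lowest quartile of genes by mean CPM over the 15 libraries 17.4% rose and 2.59% fell, and in the second quartile 26.8% rose and 8.88% fell. The third quartile had 22.5% and 15.3%. In the highest quartile, from 35.1 CPM upward, 12.3% rose and 35.9% fell, with a median log2 fold change of -0.33 against 0.89 in the lowest. The plot of change against level shows the ribosomal protein genes in the lower right part of this pattern.

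**Figure D1:**
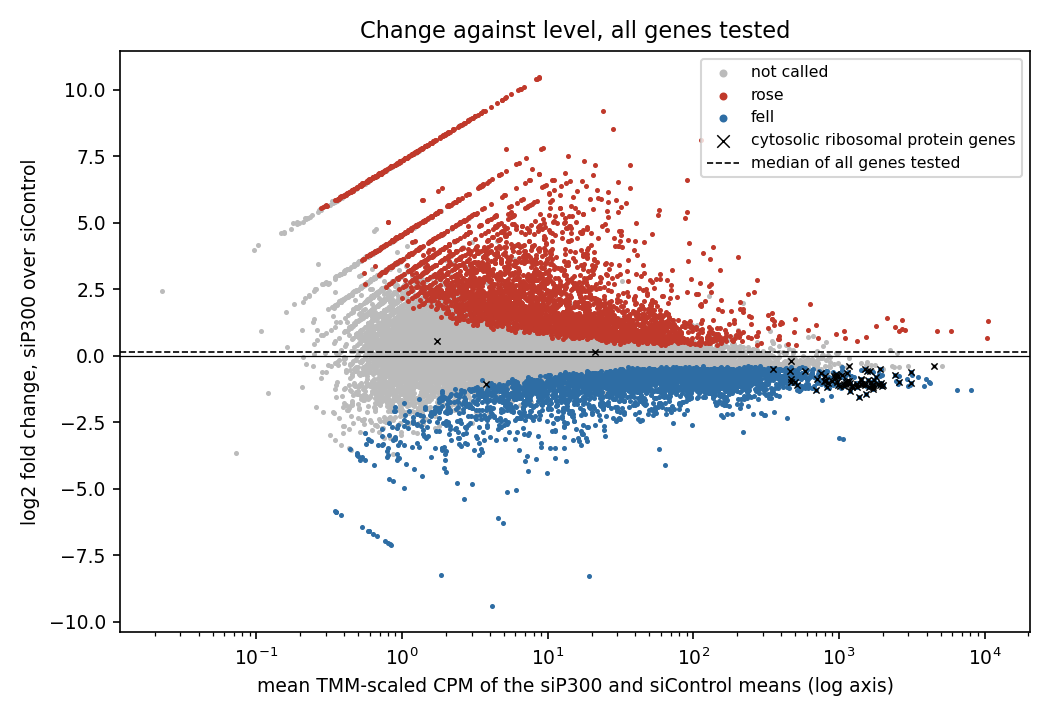
Each point is 1 of the 19182 genes tested, with the mean of the 2 groups' mean CPM on a log axis and the log2 fold change of siP300 over siControl on the vertical axis. Genes that rose are red, genes that fell are blue, crosses are cytosolic ribosomal protein genes, and the dashed line is the median of all genes (0.13). Red points are spread over low and middle levels, while the most abundant genes lie mostly below 0; the slanted rows at the left are genes at or near 0 counts in siControl, whose fitted fold change depends on the prior count.

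The 12 genes with the largest rise, under the naming rule given with the processing, were nearly silent in siControl. A choice by largest fold change favours such genes. Zcchc12, a zinc finger coactivator of BMP signalling, stood at 17.3, 15.6 and 19.6 CPM with siP300 and had no count in the siControl libraries. Calca, the gene of calcitonin and of the neuropeptide CGRP, stood at 19.7, 15.8 and 16.4 CPM, again with no siControl count. Rgs2, an inhibitor of G protein signalling, had 13.3, 11.2 and 13.1 CPM, and Nrk, a kinase gene known from the placenta, 9.41, 9.13 and 15.2 CPM. As a floor, which covers counting error at most, 3 counts were taken over the siControl group. Against it Zcchc12 was at least 167-fold higher, Calca at least 165-fold, Rgs2 at least 119-fold and Nrk at least 107-fold higher. All 3 siP300 libraries carried each of these genes at a like level. The antiviral gene Rsad2 was more uneven, at 19, 3.74 and 8.32 CPM, and was at least 98.6-fold higher. Of nonzero counts 83.8% to 85.6% were even in the siRNA libraries, so counts may exceed the fragments behind them. The floor may then be too low, and each of these bounds too high.

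Spopfm2 and Vmn2r94, members of multicopy families whose reads may be split between near-identical copies, followed siP300 replicate 2. Spopfm2 held 5.53, 29.6 and 4.03 CPM and Vmn2r94 7.56, 30.3 and 0.805 CPM, with no siControl count in either. Vmn2r94 was not called by limma-voom (adjusted p = 0.176).

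For the other 5, siControl counts were present but few. Mt3, a metallothionein, stood at 54.1, 69.5 and 20.6 CPM against 0, 0 and 0.204 CPM (log2 fold change 9.19 ± 0.78, adjusted p = 7.93e-07). Nxph1, a secreted ligand of neurexins, had 11.1, 38.4 and 118 CPM against 0, 0.211 and 0.204 CPM (log2 fold change 8.52 ± 1.15, adjusted p = 5.66e-05), so its libraries differed widely among themselves. Egr1, an immediate early transcription factor, was even, at 17.9, 15.5 and 20.3 CPM against 0, 0.211 and 0 CPM (log2 fold change 7.76 ± 0.77, adjusted p = 3.74e-06). Zfp711, a zinc finger gene, had 37.3, 14.9 and 30.5 CPM against 0.431, 0 and 0 CPM (adjusted p = 2.04e-05). Tmeff2, a membrane protein gene with follistatin-like domains, rose by 7.31 ± 0.88 on the log2 scale (adjusted p = 2.1e-05).

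By the naming rule the falling genes had a mean of at least 10 CPM in siControl. Hcrt, the precursor of the orexin peptides, fell from 22, 14.5 and 20.4 CPM with siControl to 0.369, 0.726 and 1.48 CPM with siP300 (log2 fold change -4.39 ± 0.41, adjusted p = 2.39e-06). Drd3, a dopamine receptor gene, was at 127, 121 and 112 CPM with siControl and 5.72, 7.57 and 7.65 CPM with siP300 (log2 fold change -4.10 ± 0.52, adjusted p = 3.15e-05). Dusp6, a phosphatase that acts on the kinase ERK and is itself induced by it, went from 9.71, 12 and 17.9 CPM to 0.553, 0.208 and 1.61 CPM (log2 fold change -3.97 ± 0.57, adjusted p = 8.97e-05). Each siP300 library lay far below each siControl library for these 3 genes. Tcl1, a coactivator of the kinase AKT known from early embryos, was at 22.4, 12.9 and 27.5 CPM and then 0.184, 2.49 and 1.74 CPM (log2 fold change -3.82 ± 0.51, adjusted p = 5.37e-05). Olfr1459, an olfactory receptor gene of a large family, fell from 8.63, 14.3 and 7.74 CPM to 0.553, 0 and 0.268 CPM (log2 fold change -5.12 ± 1.16, adjusted p = 0.00302). Serpinb6c, a serine protease inhibitor, fell from 108, 89.6 and 121 CPM to 5.72, 17 and 5.77 CPM (log2 fold change -3.50 ± 0.35, adjusted p = 4.25e-06). The remaining 6 were Msc, Tat, Mybpc2, Ccdc42, Csta1 and Gml2, with log2 fold changes from -3.47 to -3.14. Tat encodes tyrosine aminotransferase, Mybpc2 a myosin-binding protein and Msc the repressor musculin.

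The RefSeq promoter windows of the 2 genes with the largest fold change in each direction are shown so that the sequence around the listed start can be read. They are RefSeq sequences of GRCm38.p6 from 250 bases before to 50 bases after the start, written 5′ to 3′ on the gene's strand. Capitals mark matches on either strand to the motifs named with them.
Zcchc12: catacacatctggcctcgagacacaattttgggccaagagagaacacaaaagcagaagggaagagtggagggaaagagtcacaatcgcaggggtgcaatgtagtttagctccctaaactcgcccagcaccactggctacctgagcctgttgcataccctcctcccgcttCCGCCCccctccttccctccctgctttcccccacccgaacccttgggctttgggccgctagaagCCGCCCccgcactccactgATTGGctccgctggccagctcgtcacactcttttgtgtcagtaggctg
Calca: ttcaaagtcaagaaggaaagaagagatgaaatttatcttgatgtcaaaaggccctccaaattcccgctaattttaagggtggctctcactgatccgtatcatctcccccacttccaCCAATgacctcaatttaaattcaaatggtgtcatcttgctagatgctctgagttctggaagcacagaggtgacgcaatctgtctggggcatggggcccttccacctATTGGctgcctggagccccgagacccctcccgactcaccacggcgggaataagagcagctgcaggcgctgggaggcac
Olfr1459: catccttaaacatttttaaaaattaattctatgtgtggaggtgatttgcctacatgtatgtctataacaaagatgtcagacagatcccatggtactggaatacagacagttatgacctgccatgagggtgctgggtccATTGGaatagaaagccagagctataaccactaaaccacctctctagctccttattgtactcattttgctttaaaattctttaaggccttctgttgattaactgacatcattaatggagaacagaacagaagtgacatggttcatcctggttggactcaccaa
Hcrt: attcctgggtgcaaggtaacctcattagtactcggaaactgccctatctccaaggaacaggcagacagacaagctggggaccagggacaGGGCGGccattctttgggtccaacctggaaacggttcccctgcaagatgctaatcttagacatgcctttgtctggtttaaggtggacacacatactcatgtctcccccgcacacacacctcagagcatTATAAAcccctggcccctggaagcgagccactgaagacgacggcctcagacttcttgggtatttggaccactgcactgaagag
The Zcchc12 window (chrX:36195654-36195953, plus strand) held 2 GC boxes and a CCAAT box, and the Calca window (chr7:114636308-114636607, minus strand) held 2 CCAAT boxes. The Olfr1459 window (chr19:13146608-13146907, minus strand) held a CCAAT box, and the Hcrt window (chr11:100762882-100763181, minus strand) held a TATA box and a GC box. In GENCODE Olfr1459 spans chr19:13138021-13149549, so its window lies inside the gene. The last 50 bases of that window begin with ATG, so the window and its CCAAT box may not be the gene's promoter. In these windows no match overlapped another.

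Over the 13101 tested genes that had such a window, motif shares were computed for all, rising and falling genes. The search covered the TATA box (TATAAA), the core of the cAMP response element (TGACGTC), at which CREB recruits CBP, the CCAAT box (CCAAT), the GC box (GGGCGG), the TEAD motif (CATTCC), the E-box (CACGTG), the AP-1 motif (TGACTCA) and the octamer motif (ATGCAAA), on both strands. None of these motifs contains another. The cAMP response element core was in 5.51% of all windows, 5.39% of those of the 2748 rising genes and 6.54% of those of the 2109 falling genes. The AP-1 motif was in 4.96%, 5.93% and 3.51%. The GC box was in 61.4%, 65.4% and 61.0%, the CCAAT box in 42.9%, 44.7% and 42.2%, and the TATA box in 9.78%, 10.6% and 9.01%. The TEAD motif was in 14.9%, 14.5% and 15.8%, the E-box in 10.8%, 10.8% and 12.5% and the octamer in 4.43%, 4.69% and 4.22%. A match is a run of letters and not a measured site.

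The gene groups that follow are described by counts and medians, with no test of a group. The background is 19.7% higher, 15.7% lower and a median of 0.13. Members near 0 in siControl could pass the filter through siP300 or siComb alone, which tilts the tested members towards rises. This bears most on the 2-cell, maternal, neuronal, interferon, cumulus and blood lists, where members went untested, as they also did in the oviduct and sperm lists. Low genes also had a higher median, 0.89 in the lowest quartile. In the highest quartile, from 35.1 CPM upward, 35.9% of genes fell and the median was -0.33, so lists of abundant genes are to be read beside that share. For ribosome biogenesis genes, 18 of 44, and genes of G2 and M phase, 15 of 39, the share falling was nearer to it than to 15.7%. The plot of calls by gene list shows all of the lists in order of their median. At one end stand the 2-cell genes, in which 19 of 33 members rose, and at the other the ribosomal protein genes, in which 70 of 77 fell.

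**Figure D2:**
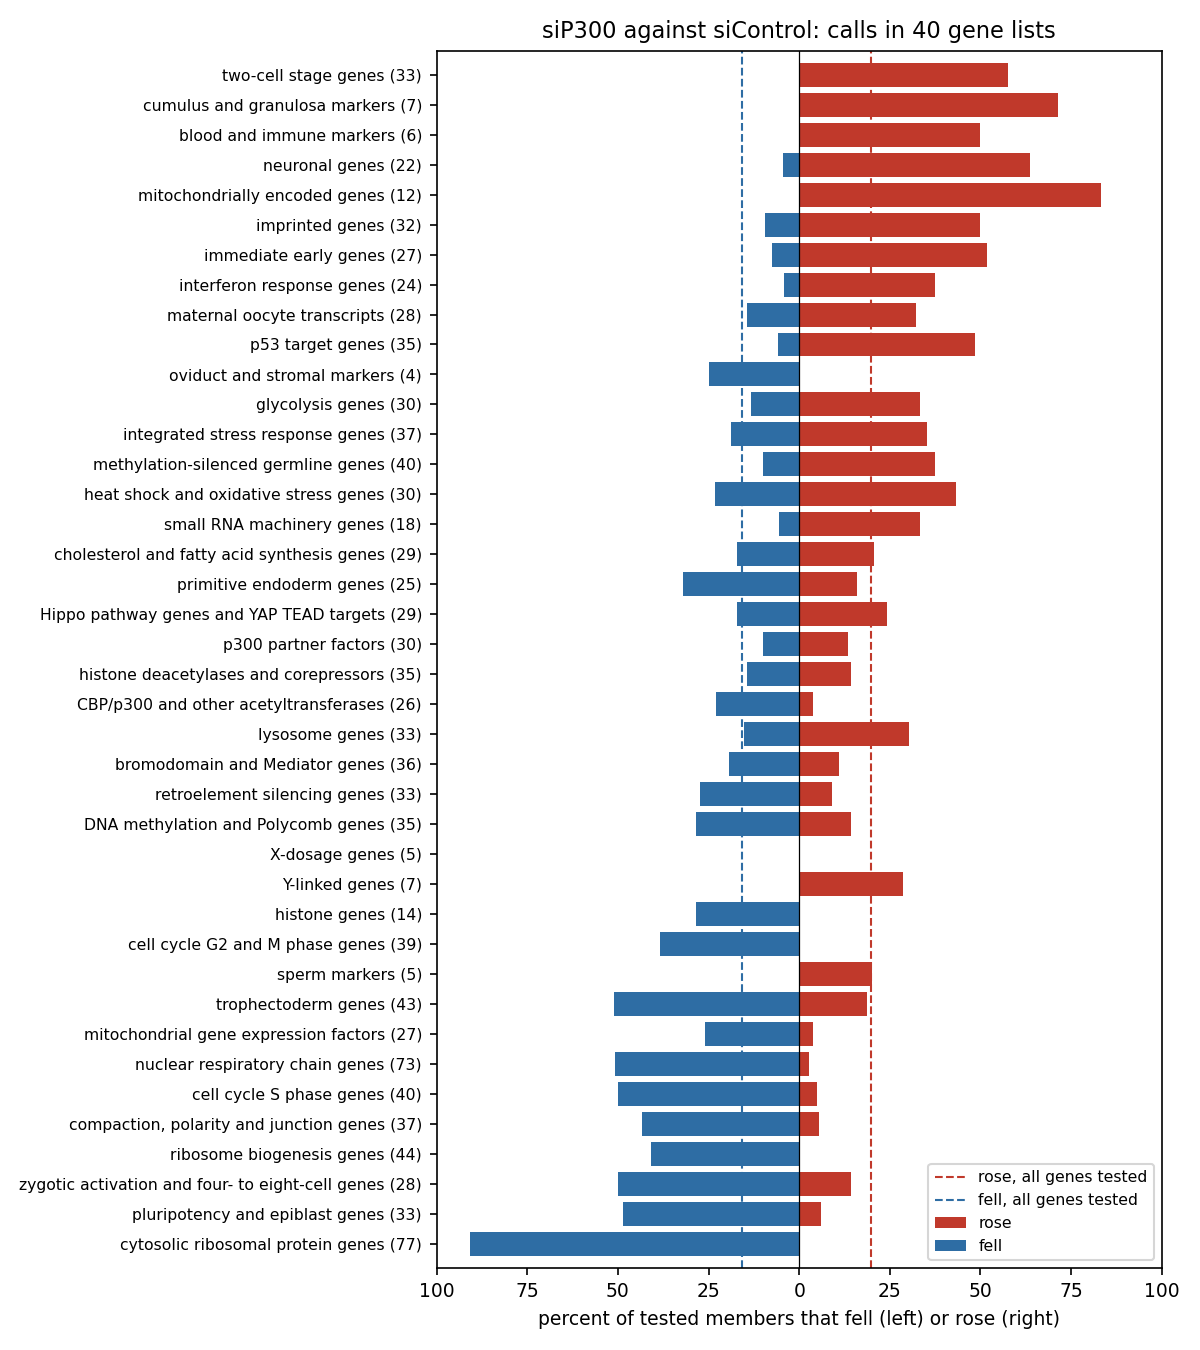
Bars give the percentage of the tested members of each gene list that rose (right, red) or fell (left, blue) in siP300 against siControl, with the number of tested members in parentheses and the lists in order of their median log2 fold change. Dashed lines mark the same percentages over all genes tested, 19.7% and 15.7%. Of the ribosomal protein genes 70 of 77 fell, and of the mitochondrially encoded genes 10 of 12 rose.

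The labelled cell type, morula blastomeres, was checked against 7 markers, which all had counts in all 6 libraries, and 6 of them fell in siP300. Pou5f1, which encodes the pluripotency factor OCT4, stood at 24.6, 10.8 and 14.2 CPM against 55.7, 54.5 and 35 CPM (log2 fold change -1.55 ± 0.36, adjusted p = 0.00331). Nanog, another core pluripotency factor, had 119, 23.2 and 63.6 CPM against 213, 220.2 and 186 CPM (log2 fold change -1.59 ± 0.40, adjusted p = 0.00628). Cdx2, the homeodomain factor of the trophectoderm, had 4.8, 3.11 and 4.16 CPM against 28.3, 35.9 and 28.9 CPM (log2 fold change -2.94 ± 0.45, adjusted p = 0.000159). The siP300 libraries lay below the siControl libraries for each of these 3 factors. Dppa3, a maternal factor that protects DNA methylation in the zygote, had 4625, 5949 and 3565 CPM against 9999, 9536 and 14896 CPM (log2 fold change -1.28 ± 0.25, adjusted p = 0.000945). Tead4, which drives Cdx2 with the coactivator YAP, and Cdh1, the E-cadherin gene of compaction, fell less (-0.92 ± 0.30 and -0.81 ± 0.25 on the log2 scale, adjusted p = 0.0238 and 0.0207). Both calls were lost without siP300 replicate 2 (adjusted p = 0.0756 and 0.0751) and with library size alone (0.129 and 0.193), and also when siControl replicate 1 or 2 was left out, and that of Tead4 without siP300 replicate 3 (adjusted p = 0.09). Krt8, a keratin of the outer cells, was not called (412, 338 and 303 CPM against 427, 365 and 280.03 CPM, log2 fold change -0.03 ± 0.21, adjusted p = 0.936).

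Among genes of pluripotency and the epiblast, 16 of 33 tested members fell and 2 rose, with a median log2 fold change of -0.81 (14 fell and 4 rose with library size alone). Id2, an inhibitor of basic helix-loop-helix factors that is on in outer cells, is listed with the trophectoderm and zygotic genes and fell from 546, 466 and 498 CPM to 89.5, 137 and 96.2 CPM (log2 fold change -2.23 ± 0.27, adjusted p = 2.18e-05). Klf5, a factor needed for both first lineages, fell from 449, 576 and 522 CPM to 209.96, 155 and 148 CPM (log2 fold change -1.59 ± 0.18, adjusted p = 9e-06). Sall4, a zinc finger partner of OCT4, and Utf1, a chromatin factor of pluripotent cells, gave log2 fold changes of -1.76 ± 0.26 and -2.37 ± 0.19 (adjusted p = 0.000118 and 4.72e-07). Utf1 was even among libraries, at 12.4, 13.5 and 14.5 CPM against 72.7, 70.3 and 65.6 CPM.

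Trophectoderm genes moved both ways: 22 of 43 fell and 8 rose, with a median of -0.48. The number rising was 5 without siControl replicate 1 and 5 without siControl replicate 3. Dab2, an endocytic adaptor, fell from 522, 423 and 477 CPM to 118, 81.7 and 119 CPM (log2 fold change -2.16 ± 0.17, adjusted p = 4.72e-07). Plac1, an X-linked gene of the placenta, rose from 4.31, 3.8 and 5.6 CPM to 33.3, 16.2 and 31.1 CPM (log2 fold change 2.55 ± 0.32, adjusted p = 2.89e-05). With library size alone 12 fell. Of 25 primitive endoderm genes 8 fell and 4 rose, and the number falling was 5 without siControl replicate 3 and 2 with library size alone. Sparc, a matrix protein, rose to 82.8, 60.4 and 48.3 CPM from 22.2, 12 and 8.76 CPM, and Serpinh1, a collagen chaperone, rose by 2.13 ± 0.51 on the log2 scale.

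Genes of zygotic activation and the 4- to 8-cell stages also had more falling than rising members, with 14 of 28 falling, 4 rising and a median of -0.60. The number falling was 8 without siP300 replicate 3 and 9 without siControl replicate 2, 2 rose without siControl replicate 1, and with library size alone 8 fell and 7 rose. Of 37 genes of compaction, polarity and junctions 16 fell and 2 rose, but this count depended on the setting: 3 fell with library size alone, and there were 8 without siP300 replicate 2, 9 without siP300 replicate 3, 9 without siControl replicate 1 and 7 without siControl replicate 2. Ezr, the ezrin gene of the apical domain, fell from 108, 83.9 and 81.9 CPM to 31.5, 19.5 and 29 CPM (log2 fold change -1.77 ± 0.22, adjusted p = 2.14e-05), and Epcam, a cell adhesion molecule, by 1.05 ± 0.15 on the log2 scale. Cldn6, a claudin of tight junctions, rose from 26.3, 18.6 and 25.5 CPM to 80.3, 79.9 and 62.5 CPM (log2 fold change 1.66 ± 0.21, adjusted p = 3.52e-05). Of 29 genes of the Hippo pathway, which keeps YAP out of the nucleus of inner cells, and of YAP targets 7 rose and 5 fell. The number rising was 4 without siP300 replicate 3 and 4 without siControl replicate 1, the number falling was 2 without siP300 replicate 2, 3 without siP300 replicate 3, 3 without siControl replicate 1 and 3 without siControl replicate 2, and with library size alone 10 rose and 2 fell. Amot, a scaffold that activates the pathway, fell from 46.2, 46.9 and 47.9 CPM to 13.8, 8.92 and 14.5 CPM (log2 fold change -1.91 ± 0.25, adjusted p = 4.39e-05), Wwtr1, which encodes the YAP relative TAZ, fell by 1.59 ± 0.22, and Mob1b, a cofactor of the LATS kinases, rose by 1.43 ± 0.17 on the log2 scale.

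MERVL and many genes of the 2-cell stage rose, in unequal measure among the siP300 libraries. MERVL-int, the internal region of the retrovirus, took 138, 869 and 127 CPM with siP300 and 25.6, 35.8 and 24.1 CPM with siControl (log2 fold change 3.73 ± 1.12, adjusted p = 0.0167), so replicate 2 stood above the others and every siP300 library lay above every siControl library. Without replicate 2 the log2 fold change was 2.24 (adjusted p = 0.101). Without all 4 libraries over 500 CPM it was 2.21. Those libraries were picked by MERVL-int itself, which narrows its scatter, so the p-value of that fit cannot be used as support and is left out. Leaving out siControl replicate 1 or 3 also ended the call (adjusted p = 0.0633 and 0.0624).

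Of 40 genes of the 2-cell stage 33 were tested, and 19 rose and none fell, and the median change was 4.81 on the log2 scale (4.72 when the 4 members without a siControl count are put at their bound). Without siP300 replicate 2 the count was 9 higher and 1 lower with a median of 2.99. Without the 4 MERVL-rich libraries it was 19 and 1, but that choice rests on a marker of the same 2-cell program. The number rising was 7 without siControl replicate 1 and 9 without either of the others. Gm5662 had 80.9, 98.6 and 7.04 CPM against 1.29, 1.06 and 1.43 CPM (log2 fold change 5.61 ± 1.38, adjusted p = 0.00525), and Gm20767 9.96, 36.5 and 13.4 CPM against 0.647, 0.211 and 0 CPM (log2 fold change 6.08 ± 1.58, adjusted p = 0.00715). Limma-voom called neither (adjusted p = 0.0581 and 0.0695). Sp110, a nuclear body protein gene, had 63.8, 151 and 27.8 CPM against 16, 35.2 and 15.1 CPM (log2 fold change 1.87 ± 0.49, adjusted p = 0.00789), a call lost without replicate 2 (adjusted p = 0.0613). Most of these genes belong to multicopy families, so their levels are uncertain.

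Of 33 genes that silence retroelements 9 fell and 3 rose, with a median of -0.08. The direction of the calls was the other way with library size alone, where 12 rose and 4 fell and the median was 0.24. Trim28, the corepressor KAP1 that silences retroviruses, fell from 283, 282 and 246 CPM to 159, 89 and 133 CPM (log2 fold change -1.09 ± 0.20, adjusted p = 0.000705). Zfp57, a zinc finger protein that keeps imprints, fell from 22.4, 24.9 and 28.3 CPM to 12, 8.09 and 4.09 CPM (log2 fold change -1.65 ± 0.32, adjusted p = 0.000928), and Zfp932 fell by 0.97 ± 0.20 on the log2 scale. The number falling was 5 without siP300 replicate 3 and 4 without siControl replicate 1, and the number rising was 1 without siP300 replicate 1, 5 without siP300 replicate 2 and 1 without siControl replicate 3.

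Of 39 maternal oocyte transcripts 28 were tested, 9 rose and 4 fell, with a median of 0.82 and the limit of the filter given above. The summed level of the list was nevertheless lower, from 4255 to 6715 CPM with siP300 and from 10255 to 15786 CPM with siControl. Dppa3 alone had 4625, 5949 and 3565 CPM with siP300 and 9999, 9536 and 14896 CPM with siControl. The sum thus follows mostly that 1 gene and does not show that maternal RNA as a whole was lower. Btg4, an adaptor of the deadenylase that clears maternal RNA, rose from 1.08, 0.422 and 0.815 CPM to 8.67, 14.3 and 12.5 CPM (log2 fold change 3.92 ± 0.53, adjusted p = 5.35e-05). Ooep, a subunit of the maternal complex under the egg cortex, fell from 56.9, 56.4 and 74.3 CPM to 15.1, 15.8 and 21.7 CPM (log2 fold change -1.83 ± 0.21, adjusted p = 1.34e-05). The number rising was 5 without siP300 replicate 3 and 3 without siControl replicate 3.

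Genes of the protein synthesis apparatus fell. Of 77 cytosolic ribosomal protein genes 70 fell and none rose, with a median of -0.98, and 61 fell with library size alone (median -0.66). The count was between 62 and 71 whichever of the 6 libraries was left out. Rpl26 stood at 759.8, 777 and 559 CPM against 1848, 1899 and 2454 CPM (log2 fold change -1.57 ± 0.17, adjusted p = 9.3e-06) and Rpl10a at 357, 359.8 and 267 CPM against 691, 698 and 712 CPM (log2 fold change -1.09 ± 0.15, adjusted p = 6.58e-05). In both, siP300 replicate 3 was the lowest library. Ribosomal protein genes have processed copies in the genome that can share their reads: of 661 processed pseudogenes tested 154 fell (23.3%) and 31 rose (4.69%), with a median of -0.75. Among 44 ribosome biogenesis genes 18 fell and none rose, with a median of -0.54. That count was 11 without siP300 replicate 3, 11 without siControl replicate 1 and 11 without siControl replicate 2, and 9 with library size alone. Wdr12, of the complex that matures the large subunit, fell from 137, 166 and 169.7 CPM to 50.2, 78.3 and 55.8 CPM (log2 fold change -1.36 ± 0.19, adjusted p = 7.93e-05). Nop10 and Nhp2, proteins of the particles that pseudouridylate RNA, fell by 1.21 ± 0.21 and 1.15 ± 0.21 on the log2 scale.

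Mitochondrially encoded and nuclear genes of the respiratory chain went opposite ways. Of 12 tested mitochondrial genes 10 rose and none fell, with a median of 1.22. The cytochrome oxidase gene mt-Co1 stood at 3014, 2942 and 3430.04 CPM against 1062, 1212 and 1232 CPM (log2 fold change 1.42 ± 0.16, adjusted p = 8.32e-06), and the complex I genes mt-Nd2 and mt-Nd5 rose by 1.34 ± 0.15 and 1.13 ± 0.15 on the log2 scale. Of 73 nuclear genes of the chain 37 fell and 2 rose, with a median of -0.49, and 19 fell with library size alone. Cox5a, a subunit of the same oxidase, fell from 1359, 1321 and 1503 CPM to 694, 624 and 631 CPM (log2 fold change -1.10 ± 0.15, adjusted p = 6.09e-05). Atp5j, of the ATP synthase, and Ndufb5, of complex I, fell by 0.99 ± 0.16 and 1.04 ± 0.17. Leaving the mitochondrial genes out of the fit gave 3782 genes higher and 2997 lower in all. Of 27 nuclear factors of mitochondrial gene expression 7 fell and 1, Polg2 of the DNA polymerase, rose by 1.03 ± 0.24. Ppargc1b, a coactivator of mitochondrial genes, fell from 22.4, 23.2 and 15.1 CPM to 5.35, 2.7 and 7.25 CPM (log2 fold change -1.97 ± 0.39, adjusted p = 0.00119). The 7 became 2 with library size alone, and were 12 without siP300 replicate 1 and 4 without siP300 replicate 3.

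In several lists of genes induced by stress more members rose than fell. Of 35 targets of the tumour suppressor p53 17 rose and 2 fell, with a median of 0.66, and 17 or 18 rose whichever library was left out. Mdm2, the ligase that restrains p53 and is also its target, went from 81.5, 86.2 and 81.8 CPM to 412, 385 and 518 CPM (log2 fold change 2.40 ± 0.20, adjusted p = 7.41e-07). Trp53inp1, a cofactor of p53, rose from 46.8, 39.1 and 53.6 CPM to 193, 153 and 194 CPM (log2 fold change 1.95 ± 0.17, adjusted p = 1.48e-06), and Btg2, an antiproliferative gene, from 88.4, 94.6 and 103 CPM to 333, 294 and 343 CPM (log2 fold change 1.76 ± 0.20, adjusted p = 1.28e-05). All siP300 libraries were above all siControl libraries for these 3. Of 37 genes of the integrated stress response, which acts through the translation factor eIF2 and ATF4, 13 rose and 7 fell. Ddit3, the CHOP gene, rose from 24.4, 18.4 and 20.6 CPM to 76.2, 121 and 106 CPM (log2 fold change 2.26 ± 0.30, adjusted p = 5.21e-05) and Atf3 from 1.08, 2.96 and 2.65 CPM to 21.2, 45.4 and 38.9 CPM (log2 fold change 3.97 ± 0.53, adjusted p = 5.35e-05). The number falling was 1 with library size alone, and it was 4 without siP300 replicate 2, 3 without siP300 replicate 3, 2 without siControl replicate 1 and 3 without siControl replicate 2.

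Of 30 heat shock and oxidative stress genes 13 rose and 7 fell. The summed level of the list was lower, from 12806 to 17444 CPM with siP300 and from 19996 to 23445 CPM with siControl. Hmox1, heme oxygenase, rose from 29.3, 30.8 and 27.9 CPM to 368, 223 and 234 CPM (log2 fold change 3.23 ± 0.23, adjusted p = 3.76e-07). Nqo1, another target of the factor NRF2, rose from 6.47, 5.49 and 8.55 CPM to 71, 72.8 and 44.5 CPM (log2 fold change 3.19 ± 0.31, adjusted p = 2.61e-06), and Hspa4l, a heat shock protein, by 2.34 ± 0.25 on the log2 scale. Immediate early genes, which respond to signals without new protein, had 14 of 27 members higher and 2 lower with a median of 1.03. Egr1 and Atf3, given above, were 2 of the 14.

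Of 40 S phase genes 20 fell and 2 rose, with a median of -0.49. Tyms, thymidylate synthase, fell from 463, 434 and 496 CPM to 145, 213 and 146 CPM (log2 fold change -1.47 ± 0.19, adjusted p = 4.54e-05), and Rrm2, of ribonucleotide reductase, by 1.06 ± 0.17 on the log2 scale. Ccne2, a cyclin that drives entry into S phase and is also a p53-responsive gene, rose from 21.6, 16.1 and 25.9 CPM to 71.7, 91.5 and 78 CPM (log2 fold change 1.92 ± 0.23, adjusted p = 1.56e-05). Of 39 genes of G2 and M phase 15 fell and none rose. Birc5, survivin of the chromosomal passenger complex, fell from 874, 803 and 893 CPM to 388, 409 and 345 CPM (log2 fold change -1.17 ± 0.19, adjusted p = 0.000211), its partner Incenp by 1.03 ± 0.18 and Racgap1, of the central spindle, by 1.04 ± 0.21 on the log2 scale. With library size alone 12 S phase genes and 5 genes of G2 and M phase fell. The latter count was 6 without siP300 replicate 3, 9 without siControl replicate 1 and 8 without siControl replicate 2.

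Of 30 glycolysis genes 10 rose and 4 fell, with a median of 0.60. Only 2 fell without siP300 replicate 3, without siControl replicate 1 or with library size alone. Ldhb, a lactate dehydrogenase subunit, was at 129, 226 and 174 CPM against 2.8, 4.86 and 4.68 CPM (log2 fold change 5.42 ± 0.43, adjusted p = 4.6e-07). Pdk3, a kinase that inhibits pyruvate dehydrogenase, rose from 14.9, 9.93 and 12.8 CPM to 105, 96.4 and 118 CPM (log2 fold change 3.08 ± 0.28, adjusted p = 1.98e-06). Hk2, a hexokinase, fell from 45.9, 54.5 and 40.3 CPM to 9.41, 7.68 and 10.6 CPM (log2 fold change -2.34 ± 0.27, adjusted p = 1.57e-05). Among 29 genes of cholesterol and fatty acid synthesis 6 rose and 5 fell, close to the background, and the number rising was 3 without siControl replicate 2 and 3 without siControl replicate 3. Scd1, a fatty acid desaturase, fell by 2.44 ± 0.26, while Sc5d, an enzyme of cholesterol synthesis, rose by 1.87 ± 0.28 on the log2 scale.

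**Figure D3:**
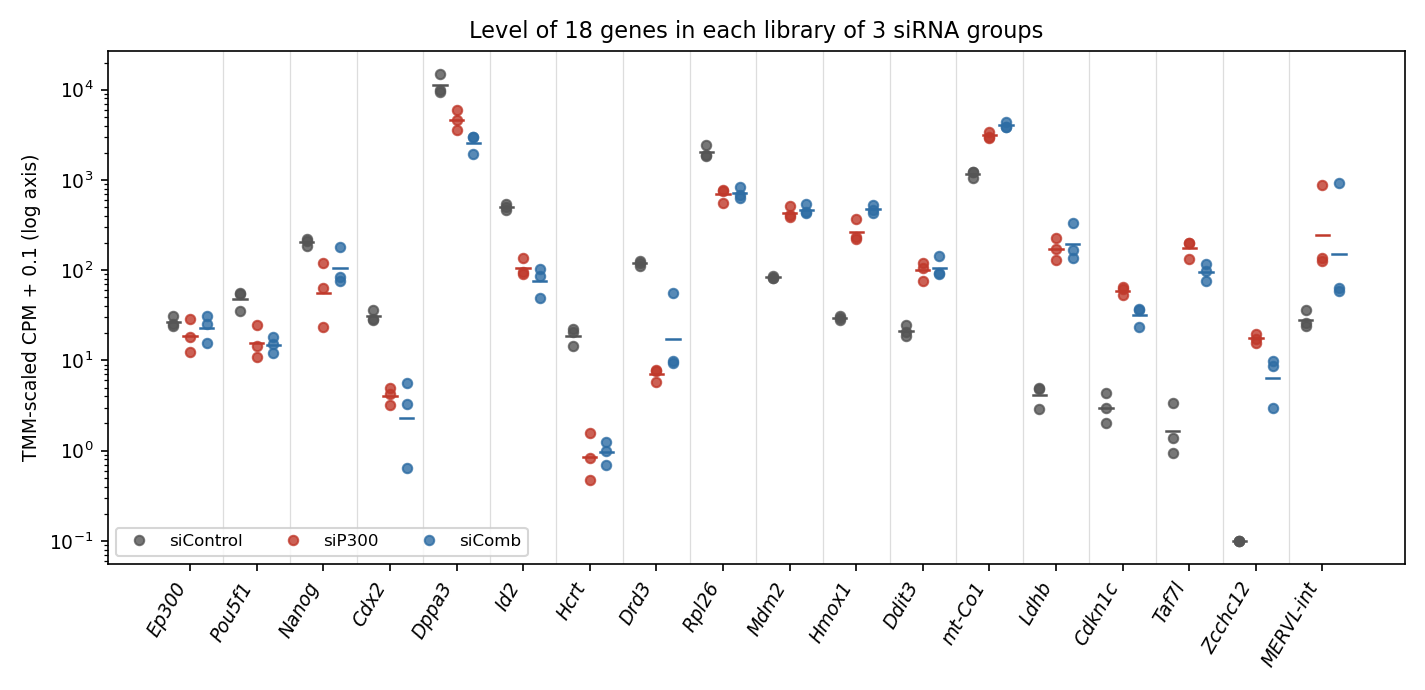
Points are the CPM of single libraries plus 0.1 on a log axis for 18 genes in the siControl (grey), siP300 (red) and siComb (blue) groups, 3 libraries each, and lines are the geometric means. Ep300 overlaps between groups, Cdx2, Dppa3 and Hcrt lie lower in each siP300 library than in any siControl library, and Mdm2, Hmox1, Ldhb and Taf7l lie higher. MERVL-int in siP300 replicate 2 stands above the other siP300 libraries, at 869 CPM against 127 and 138 CPM.

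Lists of the chromatin machinery to which p300 belongs had calls in both directions, and which direction held more of them depended on the scaling. Of 26 acetyltransferases tested 1 rose and 6 fell, with a median of 0.03, but with library size alone 9 rose and 2 fell, with a median of 0.36, and 3 fell without siControl replicate 2. Elp3, of the Elongator complex, fell from 77, 71.4 and 57.8 CPM to 32.3, 13.7 and 23.2 CPM (log2 fold change -1.57 ± 0.37, adjusted p = 0.00373), Ing5, a reader in MYST complexes, fell by 1.10 ± 0.18, and Jade3, another subunit of such complexes, rose by 1.16 ± 0.18 on the log2 scale. Of 30 factors that bind p300 or CBP 4 rose and 3 fell, with a median of 0.05. With library size alone 7 rose and 1 fell, with a median of 0.39, 2 rose without siControl replicate 2 and 5 fell without siP300 replicate 1. Cited1, a coregulator that binds the CH1 domain of p300, fell from 259, 249 and 285 CPM to 79.5, 93 and 48.2 CPM (log2 fold change -1.85 ± 0.26, adjusted p = 7.16e-05), Hif1a, the hypoxia factor, rose by 1.47 ± 0.29 and Crtc3, a CREB coactivator, by 1.51 ± 0.36. Of 35 histone deacetylase and corepressor genes 5 rose and 5 fell, but with library size alone 10 rose and 1 fell, with a median that went from 0.05 to 0.35. The number rising was 3 without siP300 replicate 1, 3 without siControl replicate 1 and 2 without siControl replicate 3, and 3 fell without any 1 library other than siP300 replicate 1. Hdac9 went from 1.94, 2.11 and 3.05 CPM to 21.2, 88.2 and 76.1 CPM (log2 fold change 4.70 ± 1.00, adjusted p = 0.00195), while Hdac2 fell by 0.82 ± 0.17 and its partner Rbbp4 by 0.64 ± 0.15 on the log2 scale, the latter not with library size alone (adjusted p = 0.0756).

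Of 36 bromodomain and Mediator genes 4 rose and 7 fell, with a median of -0.05, but with library size alone 11 rose and 4 fell, with a median of 0.26. The number rising was 2 without siControl replicate 1 and 2 without siControl replicate 3. The Mediator subunits Med19, Med29 and Med30 fell by 0.86 ± 0.16, 1.04 ± 0.19 and 1.06 ± 0.21 on the log2 scale. Of 35 DNA methylation and Polycomb genes 10 fell and 5 rose, and with library size alone 6 fell and 5 rose and the median turned from -0.19 to 0.14. Without any 1 library other than siP300 replicate 2 the number rising was 3. Dnmt3b, a de novo methyltransferase, fell from 69.6, 62.3 and 64.2 CPM to 18.8, 8.82 and 15.8 CPM (log2 fold change -2.17 ± 0.22, adjusted p = 5e-06) and its cofactor Dnmt3l by 1.2 ± 0.21, whereas the Polycomb gene Phc2 rose by 2.09 ± 0.31 on the log2 scale. Of 14 histone genes tested, some from multicopy clusters, 4 fell and none rose, and 1 fell without siP300 replicate 3 or with library size alone. Macroh2a1, a variant of repressed chromatin, fell by 1.23 ± 0.19, and H3f3a and H2az1 by 0.57 ± 0.16 and 0.68 ± 0.20. H3f3a and H2az1 were not called with library size alone (adjusted p = 0.114 and 0.0664), nor without siP300 replicate 3 (0.0567 and 0.0586), nor was H2az1 without siControl replicate 3 (0.0796).

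Several lists of genes that act in other tissues or from 1 parental copy held more rising members than the background. Of 40 germline genes held silent by DNA methylation 15 rose and 4 fell, with a median of 0.41. Taf7l, a germ cell variant of a TFIID subunit, went from 1.29, 0.845 and 3.26 CPM to 200.4, 134 and 199.98 CPM (log2 fold change 6.61 ± 0.39, adjusted p = 6.4e-08), the smallest adjusted p among the genes named here. Tex15, a silencing factor of male germ cells, rose from 8.3, 15.8 and 20.9 CPM to 115, 226 and 319 CPM (log2 fold change 3.87 ± 0.40, adjusted p = 5e-06), and Meioc, a meiosis gene, by 4.43 ± 0.63 on the log2 scale. Of 32 imprinted genes 16 rose and 3 fell, with a median of 1.05. Cdkn1c, a cyclin-dependent kinase inhibitor expressed from the maternal copy, rose from 1.94, 4.22 and 2.85 CPM to 61.4, 52.5 and 64.9 CPM (log2 fold change 4.30 ± 0.32, adjusted p = 3.76e-07). Impact, expressed from the paternal copy, rose from 32.1, 36.1 and 35.8 CPM to 139.8, 189.7 and 190.3 CPM (log2 fold change 2.32 ± 0.20, adjusted p = 7.41e-07). Slc38a4, a paternally expressed amino acid transporter, fell from 55.4, 48.3 and 54.6 CPM to 11.3, 8.92 and 10.5 CPM (log2 fold change -2.36 ± 0.21, adjusted p = 1.16e-06). The counts do not tell the parental copies apart.

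Of 31 neuronal genes 22 were tested, 14 rose and 1 fell, with a median of 2.13 and the limit of the filter given above. Uchl1, a ubiquitin hydrolase, rose from 42.7, 44.2 and 21.8 CPM to 248, 205 and 208 CPM (log2 fold change 2.61 ± 0.32, adjusted p = 2.63e-05), Elavl3, an RNA-binding protein of neurons, by 3.72 ± 0.42 and Kif5c, a kinesin, by 3.25 ± 0.40 on the log2 scale. Tubb3, a defining neuronal tubulin, is listed at 0 in the 6 libraries, but so are Rpl13, Cox4i1, Ndufa13 and Map1lc3b, which most cells use, and the pluripotency gene Sox2, so a 0 in all 6 libraries does not show that a gene is silent. These 5 were chosen after their values were seen. Of 33 lysosome genes 10 rose and 5 fell, with a median of -0.04. The calls were 13 and 2 with library size alone, with a median of 0.29, and the number falling was 8 without siP300 replicate 1, 3 without siP300 replicate 2 and 3 without siControl replicate 2. Gpnmb, a lysosomal glycoprotein, went from 0, 0.211 and 0.815 CPM to 27.9, 17.4 and 26.4 CPM (log2 fold change 6.05 ± 0.66, adjusted p = 7.98e-06), Lamp2, of the lysosomal membrane, rose by 1.45 ± 0.18 and Npc2, a cholesterol carrier, fell by 0.88 ± 0.14. Of 33 interferon response genes 24 were tested, 9 rose and 1 fell, with a median of 0.98 and the limit of the filter given above. Irf1, a transcription factor of this response, rose from 0.647, 0.422 and 1.63 CPM to 4.06, 7.06 and 11.5 CPM (log2 fold change 3.05 ± 0.62, adjusted p = 0.00141), and Sting1, a DNA sensing adaptor, by 4.02 ± 0.84. Of 18 genes of the small RNA machinery 6 rose and 1 fell: Prkra, a partner of Dicer, rose by 2.73 ± 0.33, Ago3 by 1.08 ± 0.18 and Tnrc6c, a silencing effector bound by Argonaute proteins, by 1.71 ± 0.30 on the log2 scale. Every siRNA group, siControl included, had been injected.

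Some markers of other cells that a pool could hold were higher in siP300, and their part in the calls of neuronal, interferon or maternal genes was not tested. Of 14 cumulus and granulosa markers 7 were tested, 5 rose and none fell, with the limit of the filter given above. The summed level of the list, untested members included, ran from 49.9 to 118 CPM with siP300 and from 14 to 22 CPM with siControl. Cyp11a1, a steroid enzyme of granulosa cells, had 4.06, 11.4 and 11.1 CPM against 0.863, 0.845 and 0.509 CPM (log2 fold change 3.57 ± 0.66, adjusted p = 0.000689). Tnfaip6, a matrix protein of cumulus cells, had 4.24, 11.2 and 8.59 CPM against 1.08, 0.422 and 0.611 CPM (log2 fold change 3.49 ± 0.73, adjusted p = 0.00168). Nr5a1, a steroidogenic factor with no siControl count, was at least 20.1-fold higher against the floor used above, with the same limit from even counts. Of 12 blood and immune markers 6 were tested and 3 rose, with summed levels from 77.7 to 195 CPM against 13.4 to 18.3 CPM. The alpha globin genes Hba-a1 and Hba-a2, near-identical copies, rose by 6.30 ± 0.97 and 5.31 ± 0.56, and Cd68, of macrophages, rose from 3.67, 4.01 and 3.67 CPM to 22.9, 48.1 and 42.4 CPM (log2 fold change 3.32 ± 0.32, adjusted p = 3.33e-06). The beta globins Hbb-bs and Hbb-bt and the myeloid marker Itgam are listed at 0 in the 6 libraries, with the limit on such values given above. Of 4 tested oviduct and stromal markers 1, the endothelial gene Pecam1, fell (log2 fold change -0.81 ± 0.30, adjusted p = 0.045), a call that was lost in 11 of 18 alternatives, among them library size alone (adjusted p = 0.211) and leaving out siP300 replicate 2 or 3 or siControl replicate 1 or 3. The fibroblast genes Col1a2, Col3a1 and Lum are listed at 0. Summed oviduct and stromal markers ran from 21.9 to 25.4 CPM against 21.4 to 27.5 CPM, and summed sperm markers from 66.8 to 73.5 CPM against 58.0 to 65.1 CPM. Of 5 tested sperm markers 1, Odf2 of the sperm tail, rose (log2 fold change 0.64 ± 0.24, adjusted p = 0.0467), a call lost without any 1 of the 6 libraries (adjusted p from 0.0616 to 0.118), and Akap4, Smcp and Acrv1 are listed at 0. In siComb, against the same siControl libraries, 5 cumulus and granulosa markers and 3 blood and immune markers rose as well. With A485 against Vehicle 1 of 6 tested cumulus and granulosa markers and 3 of 4 blood and immune markers rose.

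Position in the genome was looked at after the other results were known, and the X chromosome had other counts than the autosomes. Of 697 X-linked genes tested 269 (38.6%) rose and 54 (7.75%) fell, with a median log2 fold change of 0.74. On the 19 autosomes together 3462 of 18186 genes (19%) rose and 16.1% fell, with a median of 0.10, and single autosomes ran from 14.6% to 23.9% rising and from 12.4% to 18.9% falling. The plot of calls by chromosome shows this. Without siP300 replicate 2 the shares rising were 33.2% on the X chromosome and 16.7% on the autosomes, and with library size alone 47.5% and 27.4%. The share rising was larger among X-linked genes at each level: in the 4 quartiles of genes by mean CPM, from low to high, 36.3%, 45%, 46.4% and 25.6% of X-linked and 16.8%, 26.3%, 21.6% and 11.6% of autosomal genes rose.

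**Figure D4:**
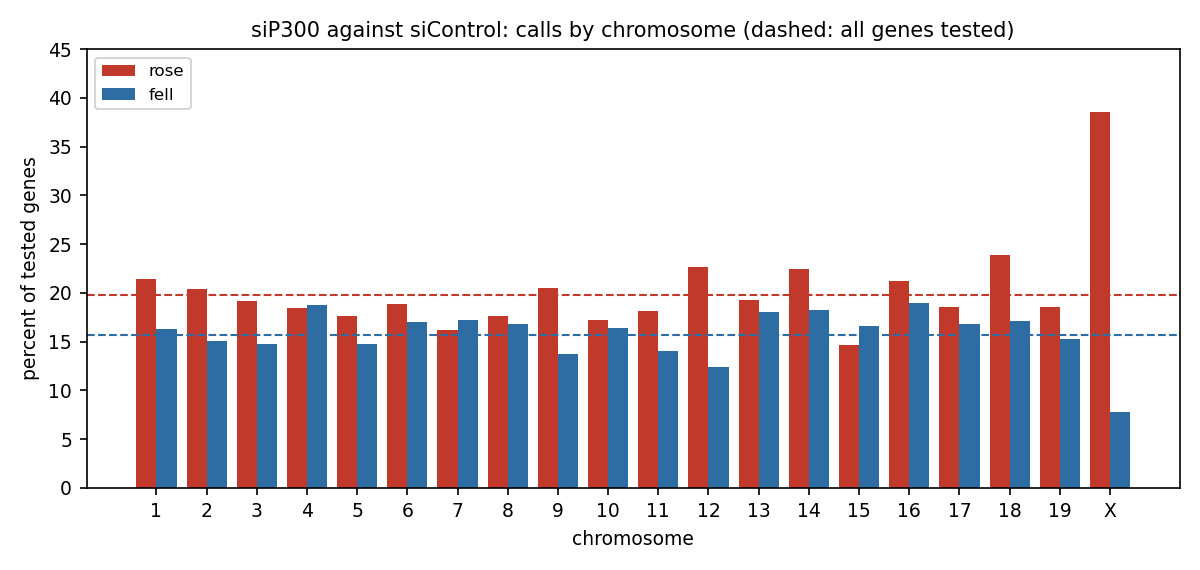
Bars give the percentage of the tested genes of each chromosome that rose (red) or fell (blue) in siP300 against siControl, and the dashed lines the same over all genes tested, 19.7% and 15.7%. On the X chromosome 38.6% of genes rose and 7.75% fell, outside the range of the 19 autosomes in both directions.

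By library, the median log2 difference of X-linked genes from the siControl mean, computed on CPM plus 1, was 0.45, 0.54 and 0.54 in siP300 replicates 1, 2 and 3, while that of autosomal genes was 0.08, 0.04 and 0.05. The X-linked share of all CPM was 3.65%, 3.8% and 3.87% with siP300 and 3.33%, 3.12% and 3.02% with siControl. X-linked genes that rose included Zcchc12, Nrk, Zfp711, Plac1, Taf7l, Pdk3, Lamp2 and Jade3, given above, and Sh3bgrl, a small adaptor-like protein gene that went from 0.216, 0.422 and 0.407 CPM to 17.5, 17.4 and 28.6 CPM (log2 fold change 5.87 ± 0.49, adjusted p = 2.18e-06). Amot and Cited1 are X-linked genes that fell. Xist, the noncoding RNA that coats the inactive X chromosome, was at 192, 139.96 and 339 CPM against 257, 233 and 209 CPM and was not called (log2 fold change -0.06 ± 0.54, adjusted p = 0.945). The labels do not give the sex of the pooled embryos, and the Y-linked genes listed together took 169, 137 and 155 CPM with siP300 and 141, 176 and 237 CPM with siControl. Of 7 Y-linked genes tested the zinc finger genes Zfy1 and Zfy2 rose (1.90 ± 0.71 and 1.88 ± 0.71 on the log2 scale, adjusted p = 0.0467 and 0.0496). Both calls were lost without siP300 replicate 3 or any 1 siControl library, and that of Zfy2 also without siP300 replicate 2. In the same fit siComb, set against the same siControl libraries, gave 37.9% of X-linked and 19% of autosomal genes higher, and A485 against Vehicle, with other controls, gave 31.6% against 21.1% of autosomal genes.

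Few genes passed the test between siP300 and siComb, and many passed it between siP300 and siKat6a or siKat6b. Against siKat6a 6688 of 19182 genes differed (34.9%, 3709 or 19.3% higher and 2979 or 15.5% lower in siP300), and against siKat6b 5174 (27%, 2763 or 14.4% higher and 2411 or 12.6% lower). The count against siKat6b was 3446 without siP300 replicate 3 and 3241 without the 4 MERVL-rich libraries, 2 of which are siKat6b libraries. Against siControl itself siKat6a had no call (410 genes at an unadjusted p under 0.05) and siKat6b 4 (0.0209%), 2 in each direction (0.0104% each, with 2004 genes unadjusted). Zcchc12 had no count in siKat6a, where the siP300 level was 17.3, 15.6 and 19.6 CPM, and Drd3, at 5.72, 7.57 and 7.65 CPM in siP300, averaged 133 ± 30.1 CPM in siKat6a and 154 ± 22.5 CPM in siKat6b (SD, n = 3). Prl3b1, a placental lactogen gene, had 0, 0.415 and 0 CPM in siP300 and averaged 11.5 ± 3.86 CPM in siKat6a and 12.8 ± 2.11 CPM in siKat6b. Ahnak2, Calb1 and Ccdc153 were higher in siP300 than in one or both of these groups. Ccdc153 had 7.75, 50.4 and 64.1 CPM and averaged 0.600 ± 0.334 CPM in siKat6a and 0.0688 ± 0.119 CPM in siKat6b. Calb1, a calcium-binding protein gene, had 9.96, 21.8 and 9.79 CPM, and Ahnak2 11.1, 18.1 and 27 CPM, with no count of either in siKat6a.

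Between siP300 and siComb 151 genes differed (0.787%), 53 (0.276%) higher and 98 (0.511%) lower in siP300. At an unadjusted p under 0.05 in the same edgeR test there were 2598 genes, so a small adjusted count does not show that the 2 groups are alike. The adjusted count moved widely with the setting, from 35 with limma-voom to 732 without a filter. It was 38 to 52 without any 1 siControl library, 42 without siP300 replicate 3 and 165 without siP300 replicate 2. Phlda2, an imprinted growth inhibitor of the placenta, had 49.3, 121 and 74 CPM with siP300, 295, 338 and 283 CPM with siComb and 19.4, 29.4 and 24.8 CPM with siControl (log2 fold change -1.91 ± 0.27, adjusted p = 0.00582, siP300 over siComb). Trf, transferrin, had 7.56, 14.7 and 25.4 CPM with siP300 and 68.9, 57.1 and 53.5 CPM with siComb (log2 fold change -1.91 ± 0.42, adjusted p = 0.0432). Dpp7, a lysosomal peptidase, had 19.19, 17.2 and 14.9 CPM and 78.7, 51.2 and 54.9 CPM (log2 fold change -1.85 ± 0.23, adjusted p = 0.00266). Crct1, a gene of the epidermal differentiation complex, had 0, 0 and 0.134 CPM and 32.6, 5.57 and 7.32 CPM (log2 fold change -7.83 ± 1.10, adjusted p = 0.0163). For these 4 the siComb libraries lay above the siP300 libraries. The glutathione transferases Gsta1 and Gsta2, members of one gene cluster that may share reads, were higher in siP300, at 29.3, 11 and 36.2 CPM against 3.23, 6.76 and 0.963 CPM (log2 fold change 2.81 ± 0.55, adjusted p = 0.0354) and 23.4, 16.5 and 9.06 CPM against 1.26, 5.37 and 2.79 CPM (log2 fold change 2.38 ± 0.46, adjusted p = 0.0328).

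siComb and siP300 share the siControl libraries, so their changes against siControl are given side by side and not as support for each other. siComb had 7036 genes (36.7%) that differed from siControl, 3761 higher (19.6%) and 3275 lower (17.1%). Ribosomal protein genes had medians of -0.98 in siP300 and -1.23 in siComb, mitochondrially encoded genes 1.22 and 0.98, p53 targets 0.66 and 0.76, pluripotency genes -0.81 and -0.85, 2-cell genes 4.81 and 5.43, and lysosome genes -0.04 and 0.60. Ep300 itself stood at 25.3, 15.4 and 31.3 CPM in siComb, Kat6a at 12.4, 9.94 and 11.9 CPM there against 21.4, 19.9 and 21.9 CPM in siP300, and Kat6b at 54, 32.6 and 82.8 CPM against 109, 53.5 and 83.7 CPM. The difference between siP300 and siComb did not pass the test for any of the 3 (adjusted p = 0.741, 0.0532 and 0.41). Against siControl, Kat6a and Kat6b were lower in siComb (log2 fold changes -0.64 and -1.03, adjusted p = 0.022 and 0.00819). Ep300 was not called there (-0.15, adjusted p = 0.722), and none of the 3 was called in siP300.

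A485, which inhibits the enzyme named in siP300, gives a second view with its own Vehicle control, though given for part of a day at the morula stage where siRNA was present from the zygote. A485 against Vehicle called 8328 of 18299 genes (45.5%), 3908 higher (21.4%) and 4420 lower (24.2%). Among 17194 genes tested in both, 1448 rose in both, which is 43.8% of the 3304 that rose in siP300 and 37.5% of the 3864 that rose with A485. A further 1487 fell in both, 50.6% of the 2936 and 34.8% of the 4279 that fell. Opposite calls numbered 321 (rose in siP300, fell with A485) and 303. The test of the difference between the 2 effects called 5497 of 20685 genes (26.6%), 3346 (16.2%) of them with the siP300 effect above the A485 effect and 2151 (10.4%) below it.

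Pluripotency genes fell in both comparisons, 16 of 33 in siP300 and 28 of 31 with A485. Pou5f1 had 6.77, 3.43 and 6.35 CPM with A485 and 82.7, 106 and 73 CPM with Vehicle (log2 fold change -3.98 ± 0.33, adjusted p = 4.39e-07), and its log2 change in siP300 was higher by 2.45 (adjusted p = 0.000888). Nanog had 1.97, 1.26 and 0.772 CPM with A485 against 110.4, 186 and 197 CPM with Vehicle, and its siP300 effect was higher by 5.35 on the log2 scale (adjusted p = 1.17e-06). Cdx2 had no count with A485 and 12.6, 14.8 and 9.99 CPM with Vehicle. Of 33 pluripotency genes the siP300 effect was above the A485 effect in 24 and below it in 1, and of 28 genes of zygotic activation in 21 and none. Nuclear respiratory chain genes went the other way: 37 of 73 fell in siP300 while 42 of 73 rose with A485, and the siP300 effect was lower in 55 and higher in none. For ribosomal protein genes it was lower in 60 of 77 and higher in none, with medians of -0.98 in siP300 and 0.18 with A485. The 12 mitochondrially encoded genes had no call of a difference, with medians of 1.22 and 1.04.

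**Figure D5:**
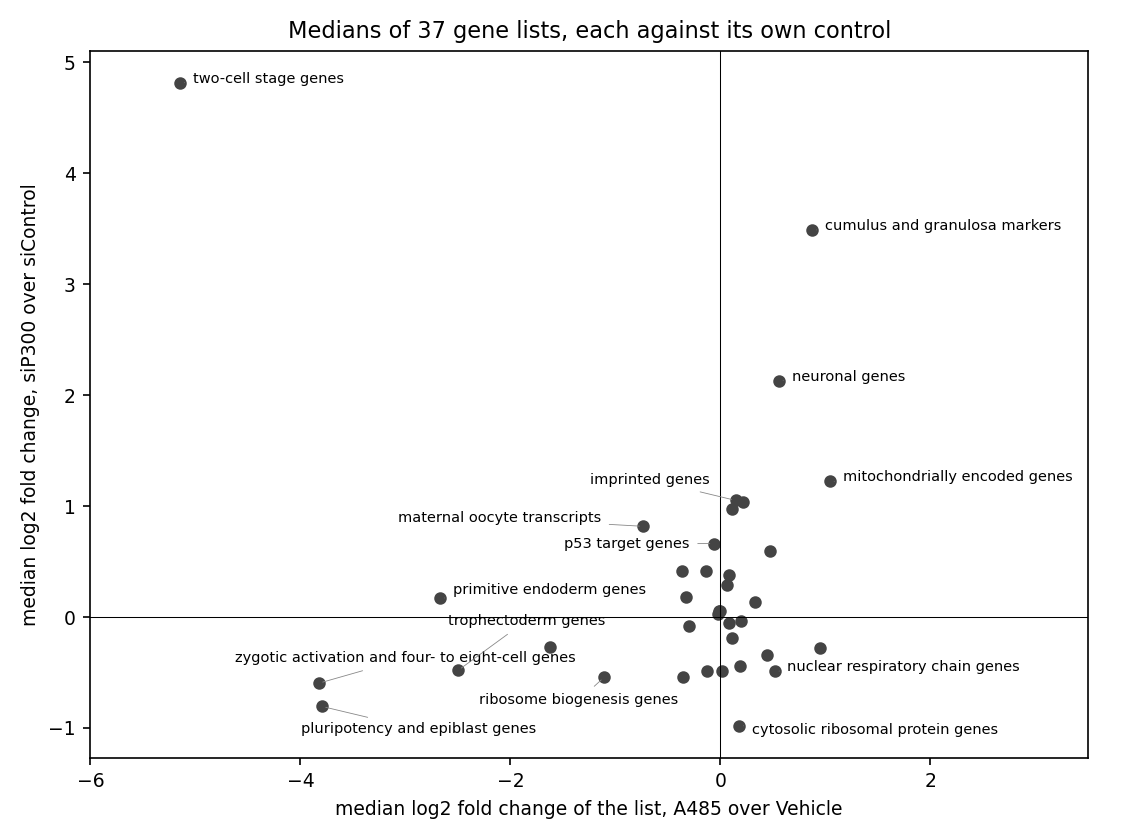
Each point is 1 of 37 gene lists with at least 5 members tested in the A485 fit. The horizontal axis is the median log2 fold change of A485 over Vehicle and the vertical axis that of siP300 over siControl, each with its own control libraries. Pluripotency genes lie at -3.8 and -0.81, ribosomal protein genes at 0.18 and -0.98, mitochondrially encoded genes at 1.04 and 1.22, and 2-cell genes at -5.14 and 4.81, which were 0 without Vehicle replicate 3 and 2.99 without siP300 replicate 2.

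For the 2-cell genes the siP300 effect was above the A485 effect in 30 of 39, but Vehicle replicate 3 held 246 CPM of MERVL-int where the other Vehicle libraries held 12.3 and 14.2 CPM, and without it the count was 9. With A485 itself 32 of 39 fell, with a median of -5.14, and without Vehicle replicate 3, an alternative chosen after seeing the data, 9 of 39 fell, with a median of 0. The 4 named genes with the largest excess of the siP300 effect, Spopfm2, Vmn2r94, Spopfm1 and Usp17lb, had counts in no other Vehicle library: Usp17lb, a 2-cell deubiquitinase gene, had 0, 0 and 84.2 CPM in Vehicle, 8.86, 104 and 1.54 CPM in siP300 and 0.431, 1.06 and 0.407 CPM in siControl. Without Vehicle replicate 3 the counts for pluripotency and trophectoderm genes were 24 and 22, as with it. At the other end stood Tceal9, Gstt2, Atf3 and Anxa3. Atf3 rose in both, to 67.8, 115 and 86.7 CPM with A485 from 0.184, 0.904 and 0 CPM with Vehicle, and its siP300 effect was lower by 3.89 on the log2 scale (adjusted p = 0.00153). Tceal9, a gene of an X-linked family, fell in siP300 (6.09, 12 and 1.88 CPM against 36, 36.5 and 16.1 CPM) and rose with A485 (80.6, 48.4 and 43.9 CPM against 11.8, 6.15 and 3.07 CPM), as did the annexin gene Anxa3 (-1.88 ± 0.30 and 1.67 ± 0.36 on the log2 scale). Gstt2, a glutathione transferase, rose in both, by 0.96 ± 0.36 and 5.27 ± 0.29 on the log2 scale, and the former call was lost in 8 of 18 alternatives. Ep300 was higher with A485 (71.5, 52.2 and 37.6 CPM against 22.7, 21.5 and 24.1 CPM, log2 fold change 1.24 ± 0.23, adjusted p = 0.000491), and its change in siP300 differed from that by -1.64 on the log2 scale (adjusted p = 0.00281).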

How the data were processed

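Bulk polyA RNA of morula pools was measured as raw counts per gene. The authors' deposited counts were made with STAR 2.7.11a and featureCounts of Subread 2.0.6 on mm10, per the submitters' processing notes; the annotation, the use of strand and pairs and the counting of MERVL were not given in the sources used here, so overlapping, antisense and multicopy genes are uncertain. The single-library files equalled the series table in 27 of 27 libraries. Of its 55369 rows, 2 are MERVL rows.

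Counts entered edgeR 4.0.16 in R 4.3.3 (filterByExpr with a minimum count of 10, TMM, quasi-likelihood test, Benjamini-Hochberg adjustment), fitted over the 15 siRNA libraries, the 12 inhibitor libraries or all 27. The standard error is the log2 fold change divided by the square root of F. Replicates of a group differed by more than sampling noise. Depth was 9161784 to 11991314 counts in the siP300 and siControl libraries, and floors cover counting error at most. Of nonzero counts 83.8% to 85.6% were even in the siRNA libraries, so counts may exceed the fragments behind them. Floors may then be too low and bounds too high. With halved counts 6762 genes were changed in siP300 against siControl.

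Genes named are Ep300, Crebbp, Kat6a, Kat6b and MERVL-int, 7 cell type markers, the 12 rising and 12 falling genes with the largest change (adjusted p under 0.05, at least 10 CPM in the higher group, no overlap, no unnamed gene models), up to 3 members of each of 40 lists by adjusted p, and 4 genes per direction in the other comparisons; some of these are not reported here. The comparison and the lists were chosen with earlier results of these data known. Promoters are RefSeq sequences. DESeq2 1.42.0, limma 3.58.1 with sample weights, other filters and scalings, a replicate block and leaving out libraries were the alternatives.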

Additional observations from a re-analysis of the deposited data

How the results depend on the processing

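Leaving out 1 library at a time gave 4715 to 6506 genes changed in siP300 against siControl, 2494 to 3513 higher and 2214 to 2993 lower, 3446 to 5257 against siKat6b, 38 to 165 against siComb and 4429 to 5137 in the difference from A485 (siP300 and siControl libraries). With library size alone 1612 genes were lower. Without the 4 libraries with MERVL-int over 500 CPM, an alternative chosen after seeing the data, as was the fit without Vehicle replicate 3, 3241 genes differed from siKat6b. Against siComb the count was 618 with DESeq2, 99 with library size alone, 35 with limma-voom, 732 without a filter and 48 with the replicate block; the cause was not tested.

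The replicate block gave 6128 genes changed in siP300 against siControl (3332 higher and 2796 lower), 6068 against siKat6a, 4683 against siKat6b and 5213 in the difference from A485. Same-numbered libraries did not deviate together (correlations of 0.0024, 0.0059 and 0.0598), so the numbers were not taken to pair the samples.

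3 genes that were not called changed sign. Crebbp ranged from -0.12 to 0.20 on the log2 scale with 1 library left out. Krt8 ranged from -0.18 to 0.11, with 0.0304 at a filter of 5 CPM, 4.74e-05 with halved counts and 0.29 with library size alone. Xist ranged from -0.49 to 0.22, with 0.0162 at the 5 CPM filter, 0.30 with library size alone and 0.19 without the 4 MERVL-rich libraries. Depth limits the low genes most: those at 0 counts in a group have only a bound.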
